A study of Homo sapiens with 60 samples.

Results

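The respiratory chain of HepG2 cells was followed here as 112 protein-coding genes of the 60675 in the count table. The mitochondrial origin comprised the 13 mRNAs transcribed from the mitochondrial genome. The nuclear origin comprised 99 genes, taken by symbol: the NDUFA, NDUFB, NDUFC, NDUFS, NDUFV, UQCR and ATP5 families, COX4 to COX8, the 4 SDH genes and CYC1. By complex the nuclear genes fell into 38 for complex I, 4 for complex II, 10 for complex III, 19 for complex IV, 20 for complex V and 8 NDUFAF assembly factors, which the symbol NDUFA also takes in. NDUFA4 and NDUFA4L2 were counted with complex IV, and 2 readthrough symbols, NDUFC2-KCTD14 and ATP5MF-PTCD1, with complexes I and V.

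The chain consists of complexes I to IV, which pass electrons from NADH and succinate to oxygen, and of complex V, the ATP synthase. All of complexes I to IV except complex II pump protons across the inner mitochondrial membrane, and that gradient drives complex V. Mitochondrial DNA encodes core subunits of complexes I, III, IV and V and no subunit of complex II. All other subunits are transcribed in the nucleus, translated in the cytosol and imported, so that every complex except complex II is built from the products of both genomes. Mitochondrial mRNAs are cut from long transcripts of both strands of the circular genome and are abundant in hepatocytes.

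The study exposed HepG2, an established human hepatocellular carcinoma line, to water extracts used in Korean medicine for 24 h and sequenced mRNA. The 2 single herbs were Menthae Herba (mint) and Saposhnikoviae Radix, and the 5 multi-herb decoctions were Saengmaek-san, Guibi-tang, Soyo-san, Okbyeongpung-san and Soshiho-tang. The labelled doses were 20, 100 and 500 µg/mL, each with 3 libraries, except Soshiho-tang with 1 library per dose. The 3 vehicle libraries received 0.1% DMSO per the sample labels, whereas the text deposited with the series names 2% DMSO. All groups share the cell line and the exposure time, and the labels do not say that the 3 libraries of a group came from separate cultures, so the p-values measure the spread between these libraries, which may be technical.

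The 60 libraries held 20446500 to 32386464 counts, with a median of 25862335. Hepatocyte genes were high throughout, with ALB at 6739 to 8363 CPM, the count per 1e6 counts after scaling, the fibroblast list summed to at most 1.504 CPM, and the 4 leukocyte genes, of which 2 passed the filter, summed to 971 to 2674 CPM, with PTPRC at 0 to 0.0431 CPM. The part of these genes in the results was not tested. The labels also carry a sample code that the paired extracts share: Menthae Herba with Saposhnikoviae Radix, Saengmaek-san with Guibi-tang, and Soyo-san with Okbyeongpung-san. Vehicle had a code of its own, so a difference of an extract from vehicle cannot be told apart from a difference between codes. The 18 comparisons with vehicle also share the same 3 vehicle libraries. The level of MALAT1, a nuclear retained RNA, put 31 libraries, vehicle among them, in a lower class and 29 in a higher one.

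The 13 mitochondrial mRNAs took 8.71% of all counts in the median library, and 6.68 to 13.03% over the 60 libraries. As CPM per kilobase of exon in vehicle cells, the highest level was that of MT-CO2, a catalytic core subunit of cytochrome c oxidase, at 18980 ± 3256 (SD, n = 3). MT-CO3 followed at 15300 and MT-CO1, which carries the oxygen-reducing site, at 15010. The complex I subunits MT-ND4 at 14240, MT-ND1 at 11080 and MT-ND2 at 8295 came next among the genes of that complex. MT-ATP6, the proton channel subunit of complex V, stood at 12810, MT-ND4L at 7160, the complex III subunit cytochrome b (MT-CYB) at 7073 and MT-ATP8 at 6485. The lowest levels were MT-ND3 at 4879, MT-ND5 at 3984 and MT-ND6, the only one of the 13 on the minus strand, at 2298. Among the 92 nuclear members with enough counts to be tested, the same scale had a median of 18.6 and reached 220 ± 12.1 for ATP5F1B, the catalytic beta subunit of the ATP synthase. The length used merges the exons of all transcripts of a gene, and was 10908 bases for ATP5F1A. Nuclear genes with many transcripts are thus understated on this scale, against the mitochondrial genes and against each other.

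A pair of mitochondrial genes on each of 2 transcripts share bases, and reads over the shared bases cannot be assigned to one gene. The shared bases are shown because they are the part of the 4 reading frames for which the counts are an estimate. They are given on the plus strand of chrM in GRCh38, from GENCODE v29, with capitals on the ATG at which the second frame begins. The first stretch is 46 bases of the 207 of MT-ATP8, and the second is 7 bases.
MT-ATP8 and MT-ATP6, chrM:8527-8572: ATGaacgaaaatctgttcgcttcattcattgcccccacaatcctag
MT-ND4L and MT-ND4, chrM:10760-10766: ATGctaa

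Copies of mitochondrial genes in the nuclear genome can also draw reads. Of 404 genes with symbols of such copies, 4 reached a mean of 1 CPM, led by MTATP6P1 at 1483 CPM and MTND2P28 at 243.5 CPM, and their sum ran between 1248 and 3239 CPM. Counts of MT-ATP6 and MT-ND2 therefore carry that uncertainty. Processed copies of the nuclear members summed to 28.5 to 42.3 CPM over 195 genes.

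Summed over the 13 mRNAs, the mitochondrial level was lower in most extract libraries than in vehicle, while the summed nuclear level was slightly higher. The mitochondrial sum ranged between 65263 and 120931 CPM over the 57 extract libraries, with a median of 86117, against 140011, 102930 and 109123 CPM in the 3 vehicle libraries. In 51 of the 57 extract libraries it was below every vehicle library and in 0 above. The nuclear sum ranged between 5240 and 6739 CPM over the extract libraries, against 5544, 5859 and 5783 CPM in vehicle, with 45 of 57 above every vehicle library and 6 below. The ratio of the mitochondrial to the nuclear sum, which no library scaling can move, was 10.7 to 20.4 in the extract libraries, against 25.3, 17.6 and 18.9 in vehicle, and 54 of 57 were below every vehicle library. In bulk RNA of a single cell line, a shift in all cells and a shift in a part of them cannot be told apart.

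The same split of the origins was seen within each complex that holds both. For complex I the mitochondrial part was below every vehicle library in 47 of 57 extract libraries, and the nuclear part above every vehicle library in 40. For complex III the numbers were 52 and 32, for complex IV 53 and 45, and for complex V 52 and 45. Complex II, which has only nuclear subunits, was above every vehicle library in 43 of 57, at 332 to 375 CPM in the extracts against 339 to 347 CPM in vehicle. These sums have no test. The mitochondrial ribosomal RNAs MT-RNR1 and MT-RNR2, which are not members, were below every vehicle library in 40 and 51 of 57, and above in 14 and 2. MT-RNR1 averaged 12488 ± 1285 and 8944 ± 1464 CPM with Menthae Herba at 500 and 100 µg/mL, against 6667 ± 315 CPM in vehicle (SD, n = 3 each). It was 8529 ± 701 CPM with Saengmaek-san at 500 µg/mL. With Soyo-san and Guibi-tang at 500 µg/mL it was nearer vehicle, at 7176 ± 284 and 6912 ± 565 CPM. The other replicated extract groups had means below vehicle. The ratio of the summed mitochondrial rRNAs to the summed mitochondrial mRNAs was 0.475 ± 0.0648 and 0.390 ± 0.0285 with Menthae Herba at 500 and 100 µg/mL. It was 0.412 ± 0.0539 with Saengmaek-san at 500 µg/mL, against 0.281 ± 0.0203 in vehicle. In the other replicated extract groups its mean was between 0.266 and 0.347. Mitochondrial mRNAs were lower than in vehicle in these Menthae Herba and Saengmaek-san groups, and the part of the rRNA level in that difference was not tested.

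**Figure D1:**
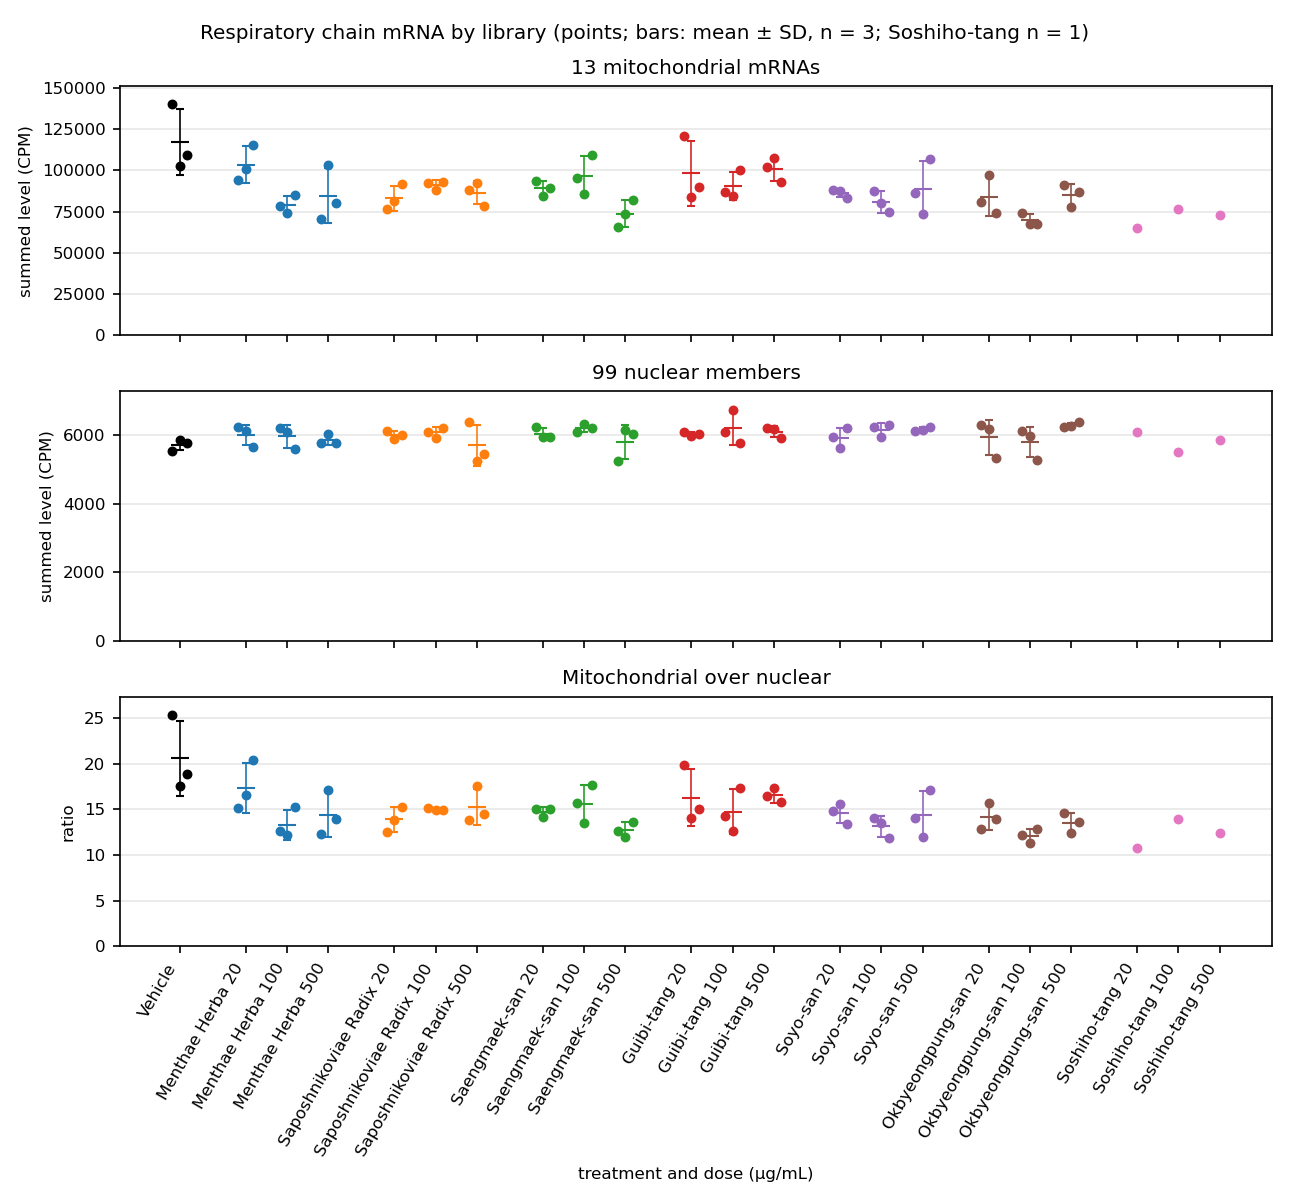
Summed CPM of the 13 mitochondrial mRNAs (top), summed CPM of the 99 nuclear members (middle) and their ratio (bottom), with 1 point per library and bars for the mean ± SD (n = 3), for vehicle and for each extract at 20, 100 and 500 µg/mL, Soshiho-tang with n = 1. The highest mitochondrial sum, 140011 CPM, and the highest ratio, 25.3, belong to vehicle replicate 1, and 51 of 57 extract libraries lie below all 3 vehicle libraries in the top panel.

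The mitochondrial sum followed no dose order in any extract. The mitochondrial sum averaged 103621 ± 10984, 79215 ± 5450 and 84779 ± 16534 CPM at 20, 100 and 500 µg/mL of Menthae Herba (SD, n = 3 each, here and below). It was 89202 ± 4661, 96804 ± 11737 and 73904 ± 8160 CPM with Saengmaek-san, and 84088 ± 11698, 69913 ± 3784 and 85151 ± 6719 CPM with Okbyeongpung-san. The lowest replicated group was thus Okbyeongpung-san at its middle dose, whose ratio was 12.1 ± 0.744, against 20.6 ± 4.11 in vehicle. Saposhnikoviae Radix, Guibi-tang and Soyo-san had means between 80892 and 100965 CPM, in no dose order. The nuclear sum was highest with Okbyeongpung-san at 500 µg/mL, at 6300 ± 70.3 CPM, and lowest with Saposhnikoviae Radix at 500 µg/mL, at 5704 ± 610 CPM, against 5729 ± 165 CPM in vehicle. The single Soshiho-tang libraries at 20, 100 and 500 µg/mL had mitochondrial sums of 65263, 76441 and 73109 CPM, nuclear sums of 6090, 5499 and 5873 CPM and ratios of 10.7, 13.9 and 12.4, with no replicate check.

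Gene by gene, each of the 13 mitochondrial mRNAs had a negative log2 fold change against vehicle in all 18 comparisons, and none was called higher. A gene was called when its p, adjusted by the Benjamini-Hochberg method over 16644 genes, was under 0.05 in the quasi-likelihood test of edgeR. With Okbyeongpung-san at 20, 100 and 500 µg/mL, 7, 12 and 7 of the 13 fell, where 3.76%, 7.04% and 4.9% of all genes tested were called lower. With Soyo-san 6, 10 and 7 fell, beside 2.22%, 4.91% and 11.4% of all genes. With Menthae Herba 0, 12 and 9 fell, beside 3.49%, 7.04% and 20% of all genes. Saposhnikoviae Radix had 5, 2 and 4 lower, beside 3.65%, 2.66% and 2.82%. Saengmaek-san had 0, 0 and 13 lower, beside 1.92%, 3.33% and 6.98%, and Guibi-tang 0, 2 and 0, beside 2.63%, 4.92% and 6.72%. Wherever a mitochondrial mRNA was called, the share of the 13 was thus above that of all genes. In the 5 comparisons with 0 called, 0 to 11 of the 13 had an unadjusted p under 0.05 in the lower direction, and DESeq2 called 0 to 3 of them.

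One vehicle library carried much of this count. Over the 18 comparisons the calls of mitochondrial mRNAs numbered 96, and 29 without vehicle replicate 1, 96 without replicate 2 and 92 without replicate 3. Without replicate 1 the 13 mRNAs still had 11 calls with Okbyeongpung-san at 100 µg/mL and 9 with Saengmaek-san at 500 µg/mL, and between 0 and 3 in each of the other 16 comparisons. With all libraries but only the groups compared in each fit there were 49 calls, and 221 without the filter on low counts. Without vehicle replicate 1 the log2 difference of the mitochondrial sum from vehicle ran between -0.60 and -0.03 and stayed negative in 18 of 18 comparisons, where with all 3 it ran between -0.75 and -0.18.

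MT-CO1 and MT-CO2, catalytic subunits of complex IV, and cytochrome b (MT-CYB) of complex III were called most often. Of the 13, MT-CO1 and MT-CYB also spread least among replicates, with within-group SDs of log2 CPM of 0.135 and 0.138. The median over the 13 was 0.186, so the number of calls does not rank the genes by size of fall. MT-CO1 fell in 13 of the 18 comparisons. Its level was 15204, 14603 and 14256 CPM with Okbyeongpung-san at 100 µg/mL, against 27853, 20001 and 21576 CPM in vehicle. All 3 extract libraries lay below all 3 of vehicle, and the log2 fold change was -0.66 (SE 0.11, adjusted p = 0.000115). With Saengmaek-san at 500 µg/mL MT-CO1 was 14668, 15828 and 16891 CPM against the same vehicle values, again without overlap, with a log2 fold change of -0.55 (adjusted p = 0.000469). With Guibi-tang at 500 µg/mL, by contrast, it was 20770, 20375 and 18677 CPM, within reach of vehicle replicate 2, and it was not called. MT-CO2, called in 11 comparisons, was 7547, 7027 and 6494 CPM with Okbyeongpung-san at 100 µg/mL, against 15521, 12045 and 11372 CPM in vehicle, without overlap (log2 fold change -0.89, adjusted p = 0.00014). MT-CO3 fell in 6 comparisons. Of the 13 calls of MT-CO1, 2 remained without vehicle replicate 1, as did 2 of the 11 of MT-CO2.

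MT-CYB fell in 12 comparisons, with log2 fold changes between -0.68 and -0.18 over all 18. Its 5199, 5032 and 4863 CPM with Okbyeongpung-san at 100 µg/mL compared with 9173, 7146 and 7891 CPM in vehicle (SE 0.11, adjusted p = 8.99e-05), and the groups did not overlap. With Saengmaek-san at 500 µg/mL it averaged 5312 ± 673 CPM, against 8070 ± 1025 CPM in vehicle (log2 fold change -0.60, adjusted p = 0.000199). Over all extract libraries, 52 of 57 were below every vehicle library for this gene, and 4 of its 12 calls remained without vehicle replicate 1.

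Among the 7 mitochondrial subunits of complex I, MT-ND1, part of the membrane arm near the quinone site, showed the largest fold. It was 5563, 5061 and 4871 CPM with Okbyeongpung-san at 100 µg/mL, against 12981, 8453 and 10335 CPM in vehicle. The groups were apart, and the log2 fold change of -1.04 (SE 0.19, adjusted p = 0.000377) was the lowest of its 18, the highest being -0.26. MT-ND1 fell in 10 comparisons, MT-ND4L in 8, MT-ND2 in 6, MT-ND3 and MT-ND4 in 5 each, MT-ND5 in 4 and MT-ND6 in 2. For MT-ND6 the log2 fold change reached -0.01 at its closest to vehicle. With Saengmaek-san at 500 µg/mL MT-ND6 was 763, 750 and 750 CPM, against 1565, 1041 and 1014 CPM in vehicle, without overlap (log2 fold change -0.68, adjusted p = 0.0391). The strand setting of the authors' counting is not given in the sources used here, so for MT-ND6 reads of the opposite strand cannot be told apart from its own.

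Of the complex V pair, MT-ATP8 fell in 9 comparisons and MT-ATP6 in 5. MT-ATP8 was 629, 721 and 693 CPM with Saengmaek-san at 500 µg/mL, against 1476, 1504 and 1047 CPM in vehicle, without overlap (log2 fold change -0.98, SE 0.25, adjusted p = 0.00666). Its largest fold was that of Okbyeongpung-san at 500 µg/mL, at 635 ± 112 CPM against 1342 ± 256 CPM in vehicle (-1.08, adjusted p = 0.00514). It also varied most among replicates. With Menthae Herba at 500 µg/mL it was 572, 1478 and 733 CPM, so that 1 library lay within the vehicle values, and it was not called (adjusted p = 0.0874). MT-ATP6 was 4781, 5121 and 5503 CPM with Saengmaek-san at 500 µg/mL, against 10265, 7828 and 8082 CPM in vehicle (log2 fold change -0.77, adjusted p = 0.0023).

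**Figure D2:**
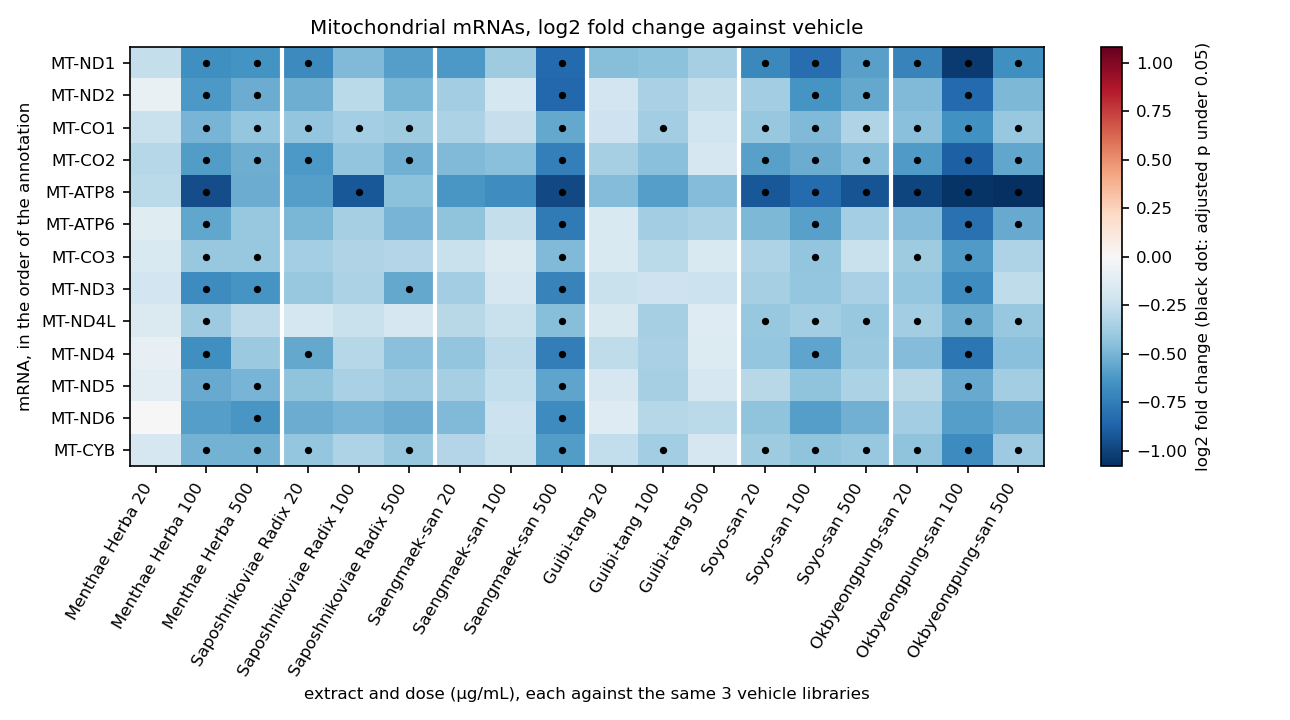
Log2 fold change against vehicle of the 13 mitochondrial mRNAs (rows) in the 18 comparisons of an extract dose with vehicle (columns), with a black dot where edgeR's adjusted p was under 0.05. All squares are negative, the lowest value is -1.08 for MT-ATP8, and the dots fill the Saengmaek-san 500 µg/mL column, with 12 of 13 in the Okbyeongpung-san and Menthae Herba columns at 100 µg/mL.

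The nuclear members moved less, and mostly upward. Over the 18 comparisons with vehicle there were 120 calls higher and 19 lower among 92 nuclear members tested, beside 14864 higher and 16708 lower among all 16644 genes. The share called higher was thus above that of all genes, and the share called lower below it. Of these genes 54 were never called in any of the 24 comparisons, 26 were called higher only, 12 lower only and 0 in both directions. The 7 members left out by the count filter were COX4I2, COX6A2, COX6B2, COX7A1, COX7B2, COX8C and ATP5MGL, all with means under 0.1 CPM. The median log2 fold change of the 92 lay between -0.01 and 0.13, beside medians of -0.01 to 0.01 over all genes tested and of -0.73 to -0.17 over the 13 mitochondrial mRNAs.

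By extract, the nuclear members called higher at 20, 100 and 500 µg/mL of Okbyeongpung-san numbered 3, 6 and 16 of 92, where 3.23%, 5.9% and 4.22% of all genes were called higher. Soyo-san had 0, 6 and 15, beside 1.66%, 3.39% and 10.1% of all genes, and Menthae Herba 4, 9 and 15, beside 3.33%, 7% and 19.8%. Saposhnikoviae Radix had 8, 6 and 1, beside 3.54%, 2.81% and 2.99%, Saengmaek-san 0, 9 and 4, beside 1.45%, 2.72% and 5.67%, and Guibi-tang 1, 10 and 7, beside 1.75%, 3.04% and 6.69%. The member share was farthest above that of all genes with Okbyeongpung-san at 500 µg/mL, at 17.4%, and with Saengmaek-san and Guibi-tang at 100 µg/mL, at 9.78% and 10.9%. With Menthae Herba at 500 µg/mL it was 16.3%, below that of all genes. The lower calls were 10 with Menthae Herba at 500 µg/mL, 4 with Okbyeongpung-san and 1 with Menthae Herba at 100 µg/mL, 2 with Saengmaek-san, and 1 each with Saposhnikoviae Radix and Guibi-tang, the last 3 at 500 µg/mL. Vehicle replicate 1 again carried much of the count: without it the nuclear calls were 31 higher and 11 lower, with 4 higher left for Okbyeongpung-san at 500 µg/mL and 0 and 2 for Saengmaek-san and Guibi-tang at 100 µg/mL. Without replicate 2 they were 114 and 13, and without replicate 3 they were 86 and 12.

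Complex I accounted for 61 of the higher and 6 of the lower calls, among 38 genes, beside 14864 higher and 16708 lower calls among all 16644 genes. Its share called higher was above that of all genes, and its share called lower below. NDUFA9, an accessory subunit at the junction of the matrix and membrane arms, was called higher in 14 of 18 comparisons, more than any other nuclear member. It was 40.8, 40.6 and 40.4 CPM with Menthae Herba at 500 µg/mL, against 33.2, 34.1 and 31.99 CPM in vehicle. The groups were apart (log2 fold change 0.30, SE 0.06, adjusted p = 0.00016). Over all extracts and doses NDUFA9 was 34.2 to 44.2 CPM, and 57 of 57 extract libraries were above every vehicle library. Its log2 fold changes ran between 0.18 and 0.30, with no order by dose, and 11 of its 14 calls remained without vehicle replicate 1.

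NDUFB2, an accessory subunit of the membrane arm, had larger folds. It was 23.4, 24.4 and 23.7 CPM with Soyo-san at 500 µg/mL, against 15.1, 16.8 and 17.1 CPM in vehicle, without overlap (log2 fold change 0.55, SE 0.12, adjusted p = 0.000999). The values for Menthae Herba at 500 µg/mL were 23.8, 23.7 and 22.1 CPM (0.51, adjusted p = 0.000823). NDUFB2 was called in 9 comparisons, of which 3 remained without vehicle replicate 1. NDUFV1, the subunit that binds NADH and the flavin, was called higher in 10 comparisons, with folds of 0.10 to 0.26 on the log2 scale. Here vehicle replicate 1 stood apart at 62.3 CPM, against 76.2 and 76.0 CPM in the other vehicle libraries, and 0 of the 10 calls remained without it. NDUFA8, NDUFA2 and the assembly factor NDUFAF8 were called higher in 6 comparisons each.

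Lower calls within complex I were fewer and fell mainly on Menthae Herba at 500 µg/mL, where 8 of the 38 genes rose and 4 fell. There 19.8% of all genes were called higher and 20% lower, so the higher count is near that share and the lower one below it. NDUFB10, an accessory subunit of the membrane arm, was 40.6, 43.6 and 39.6 CPM there, against 55.5, 58.9 and 57.3 CPM in vehicle, without overlap (log2 fold change -0.47, SE 0.11, adjusted p = 0.000413). At 500 µg/mL 7 complex I genes rose with Okbyeongpung-san and with Soyo-san each, 3 with Saengmaek-san, 2 with Guibi-tang and 1 with Saposhnikoviae Radix, and 0 fell. The 8 NDUFAF assembly factors had 6 higher and 1 lower call over the 18 comparisons, and both shares were below those of all genes. NDUFAF8 rose with Okbyeongpung-san at 500 µg/mL, at 24.4 ± 0.817 CPM against 17.3 ± 1.74 CPM in vehicle (0.50, adjusted p = 0.0049).

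Complexes II and III, whose subunits include the succinate dehydrogenase of the citric acid cycle and the cytochrome bc1 core, had few calls. Among the 4 SDH genes 5 calls were higher and 1 lower, a share slightly above that of all genes for the higher calls and below it for the lower. SDHC, a membrane anchor, was 104 ± 1.52 CPM with Menthae Herba at 500 µg/mL, against 96.2 ± 0.165 CPM in vehicle (0.12, adjusted p = 0.0358). SDHB, the iron-sulfur subunit, went the other way, at 38.7 ± 1.44 CPM against 43.3 ± 1.83 CPM in vehicle (-0.16, adjusted p = 0.0316). SDHD, the other anchor, was 46.2 ± 2.60 CPM with Okbyeongpung-san at 500 µg/mL, against 38.6 ± 1.82 CPM in vehicle (0.26, adjusted p = 0.0236). Among the 10 genes of complex III 7 calls were higher and 1 lower, and both shares were below those of all genes. UQCRC1, a core protein, rose with Menthae Herba at 500 µg/mL, at 198 ± 1.47 CPM against 171 ± 15.2 CPM in vehicle (0.21, adjusted p = 0.00244), and CYC1, cytochrome c1, with Guibi-tang at 500 µg/mL, at 105 ± 4.53 CPM against 90.9 ± 5.12 CPM (0.21, adjusted p = 0.0165). None of the calls of UQCRC1 and CYC1 against vehicle remained without vehicle replicate 1, of 3 and 2.

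For complex IV the 13 nuclear genes tested had 16 calls higher and 0 lower, so that within this complex the 2 origins were called in opposite directions. The share called higher was slightly above that of all genes, which had 14864 higher calls over 16644 genes. The 16 calls fell on COX4I1, COX5A, COX7A2L and NDUFA4L2. Of these, only 1 call, of COX7A2L, remained without vehicle replicate 1. COX4I1, the ubiquitous form of the regulatory subunit 4, was 149, 150 and 154 CPM with Soyo-san at 500 µg/mL, against 116, 130 and 126 CPM in vehicle, without overlap (log2 fold change 0.28, SE 0.09, adjusted p = 0.0162). Menthae Herba at 500 µg/mL gave 149, 151 and 149 CPM (0.27, adjusted p = 0.00996). COX5A was 77.1, 77.5 and 66.0 CPM with Guibi-tang at 500 µg/mL, against 53.1, 64.4 and 56.9 CPM in vehicle (0.34, adjusted p = 0.00742). COX4I1 was called in 6 comparisons and COX5A in 5, and 0 of either remained without vehicle replicate 1, the vehicle library with the lowest value of both genes.

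The alternative subunits of complex IV were at the edge of detection. COX4I2, the form of subunit 4 linked to low oxygen, averaged 0.000557 CPM over all libraries and was not tested. NDUFA4L2, the low-oxygen paralog of NDUFA4, was 0.554, 0.584 and 0.548 CPM with Menthae Herba at 500 µg/mL, against 0.0357, 0.244 and 0.257 CPM in vehicle (log2 fold change 1.67, SE 0.54, adjusted p = 0.0106). With Guibi-tang at 500 µg/mL it averaged 0.530 ± 0.294 CPM (1.62, adjusted p = 0.0381), and neither call remained without vehicle replicate 1. NDUFA4 itself was called in no comparison, with log2 fold changes of 0.06 to 0.39. COX7A2L, which links complexes III and IV into supercomplexes, was called higher in 3 comparisons, the largest at 500 µg/mL being 59.4 ± 1.83 CPM with Okbyeongpung-san against 52.6 ± 0.772 CPM in vehicle (0.17, adjusted p = 0.0277). Of its 3 calls, 1 remained without vehicle replicate 1.

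Complex V held both the most frequent lower call among nuclear members and 2 of the more frequent higher ones. ATP5F1A, the alpha subunit of the catalytic head, was 439, 443 and 442 CPM with Okbyeongpung-san at 100 µg/mL, against 372, 384 and 376 CPM in vehicle. The groups were apart (log2 fold change 0.23, SE 0.05, adjusted p = 0.00303), and 54 of 57 extract libraries were above every vehicle library. It was called in 10 comparisons and ATP5F1B in 7, of which 1 and 0 remained without vehicle replicate 1. ATP5IF1, the inhibitor that blocks ATP hydrolysis by the synthase when the proton gradient fails, was 44.3, 47.4 and 44.8 CPM with Menthae Herba at 500 µg/mL, against 60.7, 58.5 and 59.6 CPM in vehicle, without overlap (-0.39, SE 0.09, adjusted p = 0.000646). It was 40.7, 46.7 and 51.5 CPM with Saengmaek-san at 500 µg/mL (-0.37, adjusted p = 0.00573) and 49.2, 47.0 and 49.1 CPM with Guibi-tang at 500 µg/mL (-0.30, adjusted p = 0.0232). In all, ATP5IF1 fell in 6 comparisons, 3 of which remained without vehicle replicate 1, and 55 of 57 extract libraries were below every vehicle library. ATP5MF, a small membrane subunit, fell in 3 comparisons, with Menthae Herba at 500 µg/mL at 62.8 ± 5.82 CPM against 84.7 ± 6.27 CPM in vehicle (-0.43, adjusted p = 0.0151).

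**Figure D3:**
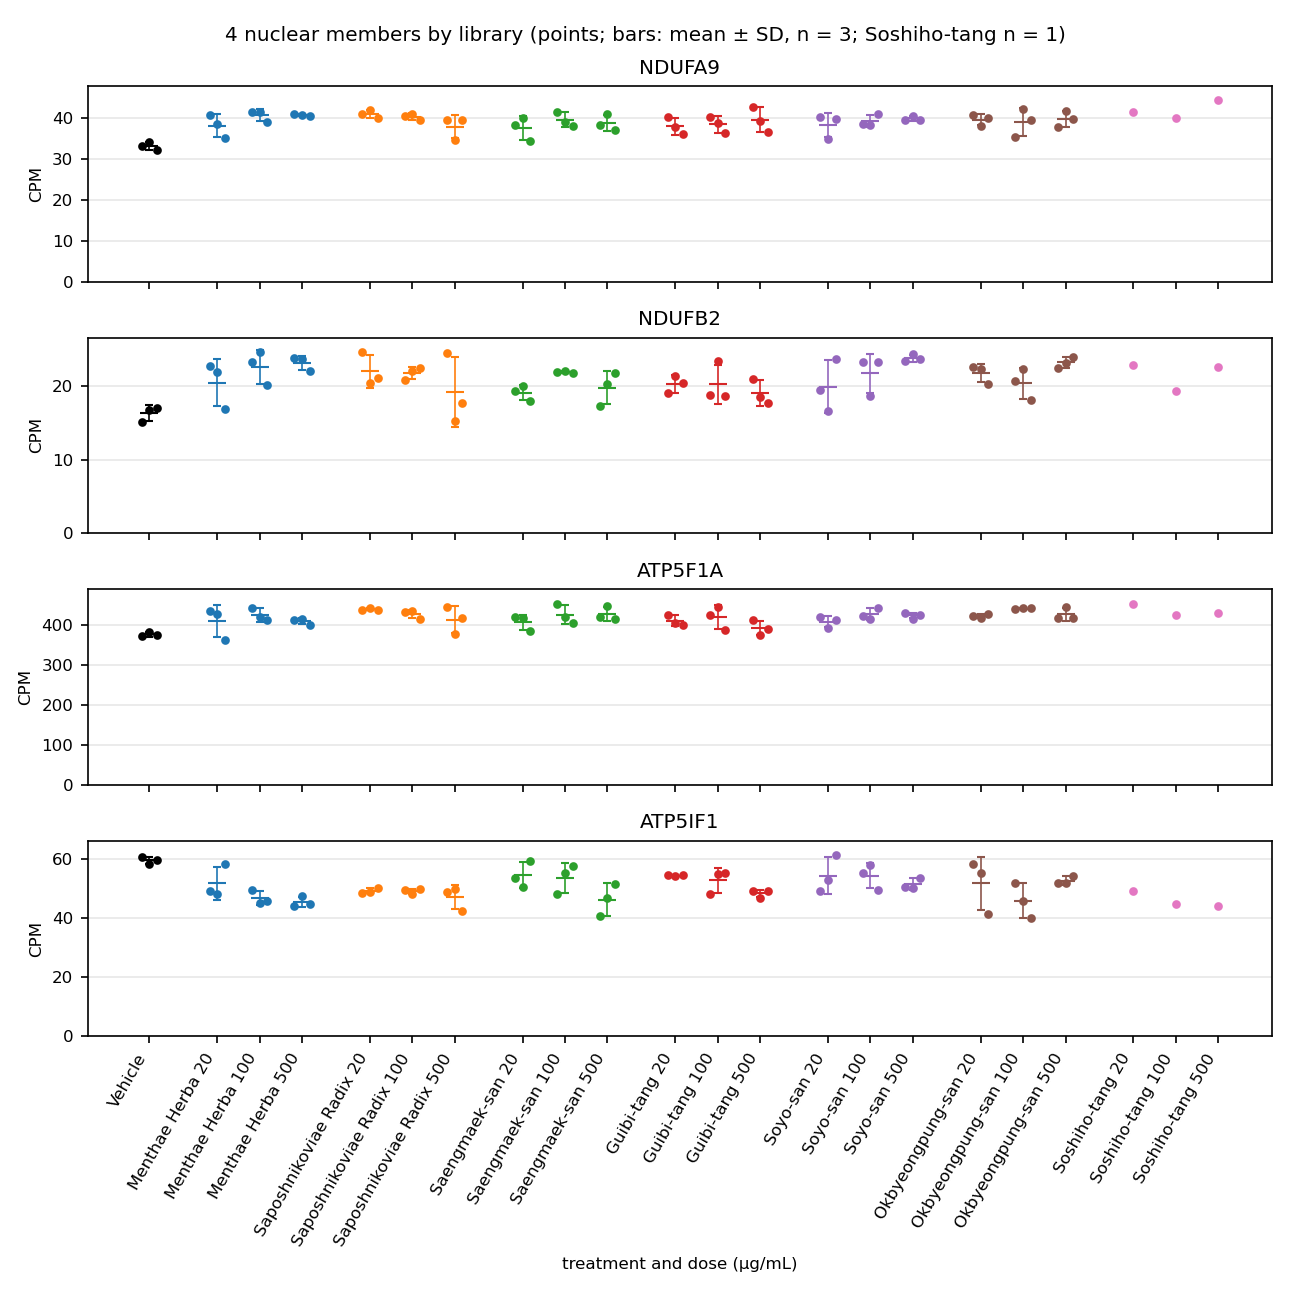
CPM of NDUFA9, NDUFB2, ATP5F1A and ATP5IF1 with 1 point per library and bars for the mean ± SD (n = 3), for vehicle and for each extract at 20, 100 and 500 µg/mL, Soshiho-tang with n = 1. For NDUFA9 all 57 extract libraries lie above the vehicle range of 31.99 to 34.1 CPM, and for ATP5IF1 55 of 57 lie below the vehicle range of 58.5 to 60.7 CPM.

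The promoters of the nuclear members were read as a property that the choice by symbol did not use. Windows of 250 bases before to 50 bases after the start site were taken from RefSeq on GRCh38.p14, and 78 of the 99 nuclear members matched. Searched on both strands, GCATGCGC, the core of the site for NRF1, was in 15 windows, or 19.2%, beside 3.27% of 27305 promoters. CCGGAAG, the core of sites for ETS family factors such as GABP, was in 21, or 26.9%, beside 10.7%. AAGATGGC, the core of the YY1 site, was in 11, or 14.1%, beside 3.03%. At least 1 of the 3 was in 36, or 46.2%, beside 15.6%. A match is a description of the letters and not of a bound site.

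The windows of 4 members, picked after their values were seen, show 1 example of each motif and 1 gene with none. NDUFA9, COX4I1 and NDUFA8 were called higher in 6 or more comparisons with vehicle, and ATP5IF1 the one called lower most often. Capitals mark the motif, which lies at the start site in each of the first 3. In NDUFA9 it is the YY1 letters on the strand that reads as the transcript, beginning 11 bases into the transcript. In COX4I1 it is the ETS letters on the opposite strand, and in NDUFA8 the NRF1 letters on both strands, overlapping.
NDUFA9 promoter, chr12:4648864-4649163, plus strand: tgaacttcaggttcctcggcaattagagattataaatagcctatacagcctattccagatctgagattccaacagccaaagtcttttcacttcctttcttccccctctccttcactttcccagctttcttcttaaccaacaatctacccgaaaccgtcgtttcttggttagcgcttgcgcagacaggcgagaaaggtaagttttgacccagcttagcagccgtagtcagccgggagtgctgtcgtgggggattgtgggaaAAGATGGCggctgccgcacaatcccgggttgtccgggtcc
COX4I1 promoter, chr16:85799445-85799744, plus strand: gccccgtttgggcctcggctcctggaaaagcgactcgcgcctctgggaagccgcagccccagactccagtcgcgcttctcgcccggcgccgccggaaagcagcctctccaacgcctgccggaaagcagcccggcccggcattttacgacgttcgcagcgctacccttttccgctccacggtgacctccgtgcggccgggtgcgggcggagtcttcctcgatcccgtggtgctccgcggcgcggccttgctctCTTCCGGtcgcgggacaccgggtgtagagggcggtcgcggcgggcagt
NDUFA8 promoter, chr9:122159730-122160029, minus strand: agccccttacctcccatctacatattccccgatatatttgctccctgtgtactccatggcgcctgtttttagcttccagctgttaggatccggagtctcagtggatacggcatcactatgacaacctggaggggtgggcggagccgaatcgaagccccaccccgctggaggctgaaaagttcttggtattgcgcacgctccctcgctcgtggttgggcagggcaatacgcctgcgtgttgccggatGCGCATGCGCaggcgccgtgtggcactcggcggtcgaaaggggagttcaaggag
ATP5IF1 promoter, chr1:28235874-28236173, plus strand: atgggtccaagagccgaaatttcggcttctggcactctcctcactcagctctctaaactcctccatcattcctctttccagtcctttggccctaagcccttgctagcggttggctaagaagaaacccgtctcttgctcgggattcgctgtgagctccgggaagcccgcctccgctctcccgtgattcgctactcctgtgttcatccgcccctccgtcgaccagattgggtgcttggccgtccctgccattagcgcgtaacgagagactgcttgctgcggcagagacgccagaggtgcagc

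Both doses of an extract share a sample code, so 500 against 20 µg/mL was compared within each extract without vehicle. With Menthae Herba 11 of the 105 members tested were called, 2 higher and 9 lower, in a comparison where 32.1% of all genes tested were called, 16.3% higher and 15.8% lower. The share of members called was thus below that of all genes. The 3 mitochondrial mRNAs called all fell, and 13 of 13 had negative log2 fold changes, with a median of -0.32. MT-ND3 was 939, 1218 and 1102 CPM at 500 µg/mL, against 1266, 1464 and 1666 CPM at 20 µg/mL, without overlap (-0.43, SE 0.15, adjusted p = 0.0194). MT-CYB was 5234, 6087 and 5704 CPM at 500 µg/mL, against 6484, 6759 and 8075 CPM at 20 µg/mL, again without overlap (-0.32, adjusted p = 0.0223). MT-ND6 was 641, 952.5 and 745 CPM at 500 µg/mL, against 811, 1312 and 1484 CPM at 20 µg/mL, with the groups overlapping (-0.63, adjusted p = 0.0284).

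The mitochondrial calls in this comparison rested on single libraries. Their number was 0 without replicate 1 of 500 µg/mL, 9 without replicate 2, 1 without replicate 3, and 4, 2 and 0 without replicates 1, 2 and 3 of 20 µg/mL. Over all members it was 5, 16 and 5, and 12, 9 and 3.

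The nuclear members that fell with Menthae Herba at 500 µg/mL were 3 of complex I, the assembly factor NDUFAF4, SDHB and ATP5MC2. NDUFB10 was 40.6, 43.6 and 39.6 CPM at 500 µg/mL, against 52.4, 50.3 and 63.4 CPM at 20 µg/mL, without overlap (-0.43, SE 0.11, adjusted p = 0.00168). NDUFS8, which carries iron-sulfur clusters, was 50.9, 53.1 and 50.4 CPM against 62.4, 62.9 and 72.5 CPM at 20 µg/mL, also without overlap (-0.36, adjusted p = 0.00948). SDHB was 38.4, 37.5 and 40.3 CPM against 45.0, 46.5 and 43.2 CPM at 20 µg/mL (-0.21, adjusted p = 0.00526). The other 3 were NDUFA11 (-0.30, adjusted p = 0.0208), the assembly factor NDUFAF4 (-0.32, adjusted p = 0.0309) and ATP5MC2, a gene for the rotor ring subunit c (-0.32, adjusted p = 0.049), named after their values were seen. NDUFS1, the largest iron-sulfur subunit of complex I, rose, at 186, 185 and 192 CPM against 173, 175 and 152 CPM at 20 µg/mL (0.17, adjusted p = 0.00623). NDUFV2, its neighbour in the NADH-oxidising module, rose as well, at 75.1, 77.9 and 77.6 CPM against 68.5, 69.9 and 58.8 CPM (0.23, adjusted p = 0.0305). NDUFS8, NDUFS1 and NDUFV2 were no longer called without replicate 3 of 20 µg/mL, at adjusted p = 0.0918 for NDUFS8 and 0.0961 for NDUFS1.

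**Figure D4:**
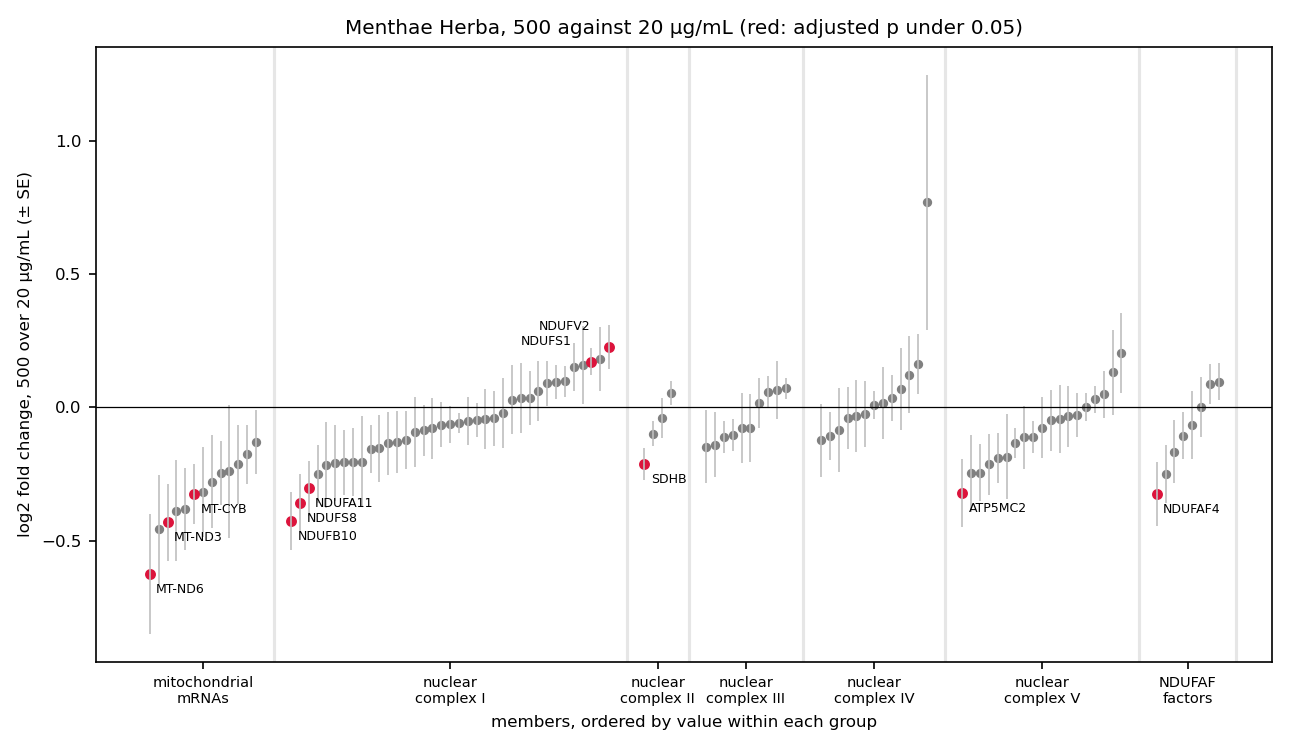
Log2 fold change (points) with its SE (bars) of 104 of the 105 members tested, Menthae Herba at 500 against 20 µg/mL, by origin and complex, with members called by edgeR in red. The 13 mitochondrial mRNAs are all below 0, and the lowest called nuclear member is NDUFB10 at -0.43. NDUFC2-KCTD14, a readthrough symbol with few counts, is not drawn.

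In the other 5 extracts 0 of the 105 members were called between 500 and 20 µg/mL by edgeR's quasi-likelihood test, and 0 by DESeq2. The shares of all genes called were 0.397% for Saposhnikoviae Radix, 1.96% for Saengmaek-san, 8.12% for Guibi-tang, 7.58% for Soyo-san and 0.024% for Okbyeongpung-san. At an unadjusted p under 0.05, Saengmaek-san had 3 mitochondrial mRNAs and 8 nuclear members lower, Saposhnikoviae Radix 1 nuclear member lower, Soyo-san 1 and Okbyeongpung-san 3 nuclear members higher, and Guibi-tang 0. The median of the 13 mitochondrial mRNAs was -0.26 with Saengmaek-san, negative for 13 of 13, and between 0.01 and 0.04 in the other 4. All mitochondrial log2 fold changes between doses were thus of one sign with Menthae Herba and Saengmaek-san and of mixed sign elsewhere.

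Replicates of a group spread more for mitochondrial mRNAs than for most genes. The within-group SD of log2 CPM had a median of 0.186 over the 13, with 0.135 as the lowest and 0.303 for MT-ATP8 as the highest, beside 0.139 for the nuclear members and 0.0800 over all genes tested with at least 10 CPM. Among 87 nuclear members with at least 10 CPM, shorter transcripts spread more: the 43 with transcripts under 963 bases had a median SD of 0.146, and the 44 others 0.1102 (Spearman's rho of length and SD -0.51 over genes, as a description). Over the 60 libraries pairs of mitochondrial mRNAs correlated with a median r of 0.80, pairs of nuclear members with 0.47, and mixed pairs with 0.08. These are descriptions over libraries that share extracts and scaling. MT-CO1 followed the other 12 most closely, with a mean r of 0.84, and MT-ND4L least, with 0.58. The mitochondrial sum had an r of -0.32 with MALAT1, 0.10 with the total count, 0.12 with the nuclear sum and 0.38 with the mitochondrial ribosomal RNAs. With MALAT1 class as a term in the fit, the calls of mitochondrial mRNAs against vehicle numbered 89 over the 18 comparisons, in place of 96. All Soyo-san and Okbyeongpung-san libraries were in the higher class, at 395 CPM of MALAT1 or more, and vehicle was at most at 279 CPM. Only Saengmaek-san and Guibi-tang groups held both classes. The term was thus estimated from these groups and is no separate check on the Soyo-san and Okbyeongpung-san calls.

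Genes that act on the chain from outside it were read from lists set for their known roles. Of 11 tested regulators of nuclear respiratory genes, 2 rose and 7 fell with Menthae Herba at 500 µg/mL against vehicle, where 19.8% of all genes were called higher and 20% lower. PPARGC1A, a coactivator of mitochondrial biogenesis, was 34.0 CPM against 20.3 CPM in vehicle (log2 fold change 0.74, adjusted p = 7.81e-11), and its relative PPARGC1B 4.99 CPM against 8.12 CPM (-0.70, adjusted p = 1.58e-07). ESRRA, a nuclear receptor that works with them, rose by 0.54 (adjusted p = 1.71e-06). HCFC1, a cofactor of such promoters, fell in 17 of the 18 comparisons with vehicle, with log2 fold changes of -0.45 to -0.21. These comparisons share the same vehicle libraries, so they do not repeat the result independently. The other extracts at 500 µg/mL had 0 to 2 regulators higher, beside 2.99% to 10.1% of all genes, and 0 to 4 lower, beside 2.82% to 11.4%.

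The lists that follow were read in that same comparison, with its 19.8% of all genes called higher and 20% lower, and the counts are near or below them. Of 16 genes of mitochondrial DNA transcription and replication, 1 rose and 2 fell with Menthae Herba at 500 µg/mL against vehicle: POLG, the replicative polymerase, at 61.9 CPM against 45.3 CPM (0.45, adjusted p = 2.97e-06), TFAM, which packages the genome and starts transcription, at 63.2 CPM against 71.9 CPM (-0.19, adjusted p = 0.00672), and MTERF4, which acts in mitochondrial ribosome assembly, at 31.7 CPM against 50.1 CPM (-0.66, adjusted p = 4.13e-14). Of 19 genes of mitochondrial RNA processing, 5 rose and 4 fell there, among them the exonuclease REXO2 (0.39, adjusted p = 1.91e-05) and SLIRP, a stabiliser of mitochondrial mRNAs (-0.46, adjusted p = 0.0267). GRSF1, of mitochondrial RNA granules, and TBRG4, of a family of mitochondrial RNA regulators, rose in 12 of 18 comparisons each, again with shared vehicle libraries. Over 39 assembly factors outside the NDUFAF symbols 5 rose and 7 fell beside the same 19.8% and 20%, led by SURF1, a complex IV assembly factor (0.44, adjusted p = 0.000327), and ACAD9, a complex I one (-0.40, adjusted p = 1.37e-07). Of 13 citric acid cycle genes 2 rose and 3 fell, with CS, citrate synthase, at 338 CPM against 457 CPM in vehicle (-0.43, adjusted p = 1.2e-14).

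The mitochondrial genes linked to low oxygen, a list that also holds NDUFA4L2, had calls in one direction. Of 9 tested, 7 rose with Menthae Herba at 500 µg/mL, where 19.8% of all genes were called higher. At the same dose 6 rose with Guibi-tang, beside 6.69% of all genes, and 5 with Soyo-san, beside 10.1%. With Saengmaek-san and Okbyeongpung-san 4 each rose, beside 5.67% and 4.22%, and with Saposhnikoviae Radix 0, beside 2.99%. None was called lower in these 6 comparisons. The calls were not confined to that dose, and were not present at every dose of each extract. Against vehicle at 20 µg/mL, 4 rose with Saengmaek-san and 4 with Guibi-tang, beside 1.45% and 1.75% of all genes called higher. Also at 20 µg/mL, 3 rose with Okbyeongpung-san, 2 with Menthae Herba, 2 with Soyo-san and 1 with Saposhnikoviae Radix, beside 1.66% to 3.54%. At 100 µg/mL 4 each rose with Menthae Herba, Saengmaek-san and Guibi-tang, beside 7%, 2.72% and 3.04%. With Saposhnikoviae Radix, Soyo-san and Okbyeongpung-san 0 rose at 100 µg/mL, beside 2.81%, 3.39% and 5.9%. BNIP3L, a receptor for the removal of mitochondria, was 64.8 CPM with Menthae Herba at 500 µg/mL against 28.0 CPM in vehicle (1.21, adjusted p = 1.87e-12). PDK1, which restrains pyruvate entry into the citric acid cycle, was 53.5 CPM against 25.0 CPM (1.10, adjusted p = 4.62e-12). Between 500 and 20 µg/mL of Menthae Herba, free of vehicle, BNIP3L (0.77), PDK1 (0.89) and BNIP3 (0.63) rose as well, at adjusted p between 1.28e-09 and 1.26e-07, in the comparison where 32.1% of all genes were called. Between the same doses 2 genes of the list rose with Saengmaek-san and 1 with Guibi-tang, beside 0.913% and 4.93% of all genes called higher. With Saposhnikoviae Radix, Soyo-san and Okbyeongpung-san 0 rose, beside 0.018% to 4.24%.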

How the data were processed

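The mRNA of HepG2 cells was sequenced from a directional library kit as paired ends, per the labels' protocols. The authors deposited expected counts per gene, which were rounded to whole numbers here. The submitters' processing notes name FastQC 0.11.9, Trim Galore 0.6.5, STAR 2.7.3a and RSEM 1.3.3 and the build GRCh38, with no annotation release or strand setting in the sources used here. The 57 replicated libraries in 19 groups were fitted together with edgeR 4.0.16 in R 4.3.3: genes were kept by edgeR's expression filter with a minimum count of 10, libraries were scaled by TMM, and quasi-likelihood F tests with robust dispersion were run on 18 contrasts with vehicle and 6 of 500 with 20 µg/mL. P-values were adjusted by the Benjamini-Hochberg method over 16644 genes and a gene was called under 0.05. Levels are TMM-scaled CPM computed here, and the common dispersion was 0.00345. The SE was derived from the fold change and the F statistic. Soshiho-tang, with 1 library per dose, entered no test. The scripts were tested on simulated counts.

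The members, pathway lists and comparisons were chosen with earlier results of these data known. Named genes were the 13 mitochondrial mRNAs, for each complex up to 3 nuclear members called most often, in each 500 µg/mL comparison the 2 called nuclear members of largest fold in each direction with a mean of at least 5 CPM, and NDUFA4, NDUFA4L2, COX4I2, ATP5IF1 and COX7A2L in any case. In a pathway list the 3 called genes of largest fold were eligible, and other genes named were picked after their values were seen. The labels do not say that replicate numbers pair the libraries, and the main fit did not pair them. Alternatives were DESeq2 1.42.0, DESeq2-type scaling (RLE) within edgeR, no expression filter, only the groups compared in the fit, totals without mitochondrial genes, MALAT1 class as a term, a replicate block, and leaving out each library in turn. For most of these genes the spread between replicates, and not the depth, sets the precision. Genes at the edge of detection, such as NDUFA4L2 at a mean of 0.258 CPM, rest on few counts, and counting error weighs more there.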

Additional observations from a re-analysis of the deposited data

Results flagged for a closer look

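The change between 500 and 20 µg/mL differed between extracts for several members, by an interaction contrast in edgeR's quasi-likelihood test over all genes, run for 15 pairs of extracts after the data were seen. The calls were in the 3 pairs named here, all with Menthae Herba, and 12 pairs had 0 members called, at the same adjusted p threshold. In the pairs without Menthae Herba, 0.018% to 2.36% of all genes differed, so 0 members is near that share. For Menthae Herba against Saengmaek-san and against Soyo-san, 13.9% and 6.57% of all genes differed, with 0 members called. Vehicle enters none of these contrasts.

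Against Okbyeongpung-san, where 21.6% of all genes differed, 8 members did. The log2 difference of the 2 dose changes was -0.53 for NDUFB10 (adjusted p = 0.00811), -0.49 for NDUFS8 (adjusted p = 0.0172), -0.44 for NDUFA11 (adjusted p = 0.0265), -0.14 for NDUFA10 (adjusted p = 0.0415) and 0.19 for NDUFS1 (adjusted p = 0.0459), all of complex I. It was -0.37 for SDHB (adjusted p = 0.00104), -0.23 for ATP5F1C, the central stalk of the ATP synthase (adjusted p = 0.0346), and -0.58 for MT-ND3 (adjusted p = 0.0366), the one mitochondrial mRNA among them. Against Guibi-tang, where 16.5% of all genes differed, 3 members did: NDUFAF4 at -0.48 (adjusted p = 0.0365), NDUFB10 at -0.43 (adjusted p = 0.0419) and SDHB at -0.26 (adjusted p = 0.0312). Against Saposhnikoviae Radix, the extract that shares the sample code of Menthae Herba, NDUFB10 differed by -0.41 (adjusted p = 0.0493), where 20% of all genes did. The share of members that differed was below that of all genes in each pair. NDUFB10 was the one member in all 3 pairs, which share the Menthae Herba libraries.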

How the results depend on the processing

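Of 2541 alternative values for 195 named calls, 1949 kept the call, 592 lost it and 0 changed sign. Leaving out 1 library gave 466 of the losses, only the groups compared 80, MALAT1 class as a term 25, no expression filter 14, the replicate block 3, RLE scaling 2, totals without mitochondrial genes 2 and DESeq2 0. RLE scaling and totals without mitochondrial genes moved no count of called members by over 1.5 times. The causes of the shifts given here were not tested.

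Over the 18 comparisons with vehicle, the 96 lower calls of mitochondrial mRNAs became 221 without the expression filter, 117 with DESeq2 and 49 with only the groups compared, all lower, and the 120 higher and 19 lower nuclear calls became 304 and 103, 159 and 37, and 188 and 55. Counts of called members (of 105) follow with those reported in brackets, at 20, 100 and 500 µg/mL against vehicle unless stated. Without the expression filter there were 20, 45 and 55 with Menthae Herba (4, 22 and 34), 40, 40 and 31 with Saposhnikoviae Radix (13, 8 and 6), 22, 38 and 34 with Saengmaek-san (0, 9 and 19), 19, 37 and 34 with Guibi-tang (1, 12 and 8), 19, 39 and 46 with Soyo-san (6, 16 and 22) and 28, 37 and 44 with Okbyeongpung-san (10, 22 and 23). For 500 against 20 µg/mL it gave 31 with Menthae Herba (11), 2 with Saposhnikoviae Radix, 21 with Saengmaek-san, 3 with Guibi-tang and 5 with Soyo-san (0 each). DESeq2 called 7 with Menthae Herba at 20 µg/mL (4), 22, 16 and 16 with Saposhnikoviae Radix (13, 8 and 6), and 3 and 15 with Saengmaek-san at 20 and 100 µg/mL (0 and 9). With only the groups compared in the fit there were 0 with Menthae Herba at 20 µg/mL (4) and 18 at 500 against 20 µg/mL (11), 26 and 27 with Saposhnikoviae Radix at 20 and 100 µg/mL (13 and 8), 1 and 9 with Saengmaek-san at 20 and 500 µg/mL (0 and 19) and 1 between its doses (0), 1 and 19 with Guibi-tang at 100 and 500 µg/mL (12 and 8), 38 with Soyo-san at 500 µg/mL (22) and 4 between its doses (0), and 2 and 36 with Okbyeongpung-san at 20 and 500 µg/mL (10 and 23). With MALAT1 class as a term there were 12 with Saposhnikoviae Radix at 500 µg/mL (6), 6 and 16 with Saengmaek-san at 20 and 100 µg/mL (0 and 9), and 3 with Guibi-tang at 20 µg/mL (1) and 1 between its doses (0).

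Leaving out 1 library at a time, in the fit that pools the spread over groups, the counts at 20, 100 and 500 µg/mL ran 0 to 7, 4 to 25 and 14 to 31 with Menthae Herba, 1 to 12, 1 to 10 and 0 to 8 with Saposhnikoviae Radix, 0 to 2, 0 to 9 and 12 to 23 with Saengmaek-san, 0 to 1, 0 to 17 and 2 to 8 with Guibi-tang, 0 to 4, 2 to 12 and 9 to 25 with Soyo-san, and 0 to 11, 16 to 24 and 5 to 19 with Okbyeongpung-san. Between 500 and 20 µg/mL they ran 3 to 16 with Menthae Herba and 0 to 0 with the other 5.

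Same-numbered libraries correlated in their deviations from the group means between -0.51 and 0.56, with all 3 pairs over 0.1 in 0 of 24 comparisons. With 3 libraries per group this measure cannot exclude that same-numbered libraries share a culture or a run. A replicate block gave 35 called members with Menthae Herba at 500 µg/mL (34) and 11 at 500 against 20 µg/mL (11), and moved no count by over 1.5 times.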
